A study of Mus musculus with 3 samples.

Results

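The genes described here are 10 core genes of transforming growth factor beta (TGF-beta) signalling: the ligand Tgfb1, the receptors Tgfbr1, Tgfbr2 and Acvr1, the Smads Smad2, Smad3, Smad4 and Smad7, and the Smad repressors Ski and Skil. They were picked by symbol because Tgfbr1 is very abundant in the cells studied, and all 10 were among the 14811 listed genes. Their levels are therefore a description and were not tested. The cells were macrophages sorted by flow cytometry from the kidneys of 3 C57BL6/J mice, labelled as mouse 1, 2 and 3. Each mouse had received PBS, a salt solution without active agent, intravenously 1 h earlier. PBS mice were the only group, and the labels name no genetic change. Neither age nor the antibodies of the sort can be stated, as both were not given in the sources used here. Levels are normalised read counts, that is, reads per gene divided by a size factor for the library, written as mean ± SD over n = 3 mice.

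TGF-beta is secreted in a latent complex and is freed from it, in many tissues by integrins that contain the alpha v chain. The active ligand binds the type II receptor encoded by Tgfbr2, which phosphorylates the type I receptor encoded by Tgfbr1. The type I receptor then phosphorylates Smad2 and Smad3, which join Smad4 and act on genes in the nucleus. Smad7 is an inhibitor of the receptor, and Ski and Skil hold back transcription by Smads. Acvr1 encodes a type I receptor that is best known for bone morphogenetic protein (BMP) signals through Smad1 and Smad5. In the kidney the pathway is known for its part in fibrosis, and in brain macrophages (microglia) it is known to maintain the identity of the cells.

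Sequences upstream of 3 members of different level are shown: Tgfbr1 is the most abundant, Tgfbr2 its partner receptor, and Smad3 a member at 1 read in 1 mouse. They are the 250 bases before the annotated start, from the RefSeq table for build GRCm38.p6, which is not the build used for counting. Capitals mark the GC box GGGCGG and the CCAAT box CCAAT, searched on both strands. The Tgfbr1 sequence lies at chr4:47352972-47353221 on the plus strand, the Tgfbr2 sequence at chr9:116175364-116175613 and the Smad3 sequence at chr9:63757995-63758244, both on the minus strand.
Tgfbr1: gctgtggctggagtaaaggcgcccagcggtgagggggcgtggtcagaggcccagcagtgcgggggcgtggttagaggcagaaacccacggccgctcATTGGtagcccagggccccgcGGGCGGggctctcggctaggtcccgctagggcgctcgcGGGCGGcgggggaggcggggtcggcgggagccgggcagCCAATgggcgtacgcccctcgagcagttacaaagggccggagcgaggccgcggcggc
Tgfbr2: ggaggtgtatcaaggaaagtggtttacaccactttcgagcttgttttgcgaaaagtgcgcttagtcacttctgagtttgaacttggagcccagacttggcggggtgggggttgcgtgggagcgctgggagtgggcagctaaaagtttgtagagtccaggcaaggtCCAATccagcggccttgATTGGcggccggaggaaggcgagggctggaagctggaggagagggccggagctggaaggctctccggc
Smad3: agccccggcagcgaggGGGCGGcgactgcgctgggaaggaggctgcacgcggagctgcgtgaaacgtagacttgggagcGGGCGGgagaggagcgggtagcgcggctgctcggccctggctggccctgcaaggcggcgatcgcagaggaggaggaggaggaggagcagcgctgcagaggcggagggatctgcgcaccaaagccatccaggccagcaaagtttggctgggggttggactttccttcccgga
The Tgfbr1 sequence shown held 2 GC boxes and 2 CCAAT boxes, the Tgfbr2 sequence held 2 CCAAT boxes and no GC box, and the Smad3 sequence held 2 GC boxes and no CCAAT box. Of 32851 upstream sequences of the same length, 32.7% held a GC box and 33.8% a CCAAT box. The G and C content was 74.8% for Tgfbr1, 58.4% for Tgfbr2 and 69.2% for Smad3, where the median of all these sequences was 52.4%. The palindromic Smad element GTCTAGAC, which 0.167% of all sequences held, was in none of the 3. The short Smad element CAGAC, which 42.2% of all sequences held, was once in the Tgfbr2 sequence and in neither of the others shown. RefSeq also has a start inside Tgfbr1, at which the 250 upstream bases (chr4:47385966-47386215) held 52.8% G and C, neither box and 1 CAGAC. These matches describe letters and are not binding sites. RefSeq had an upstream entry for 6 of the 10 members. The 3 not shown, Acvr1, Ski and Tgfb1, held 85.6%, 87.6% and 75.2% G and C and 6, 5 and 5 GC boxes. All of these values were above those of the Tgfbr1 sequence shown, although all 3 genes were lower in level.

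The libraries held between 50646558 and 56718534 reads over the listed genes. The median level of all listed genes was 45.2, 165 and 50.7 in mice 1, 2 and 3. In the same order, 18.9%, 13.2% and 19.8% of listed genes were at 0. Mitochondrial genes held 10.3%, 14.3% and 8.73% of the reads. Of 14 macrophage markers, 13 reached 1000 in all mice, the exception being Itgam at 1021, 446 and 5.64 in mice 1, 2 and 3. The summed markers were 999318, 705295 and 892493. Genes of kidney tubules and podocytes were also present: 11 of 11 were listed, 6 reached 10 in all mice, and their sum was 42259, 201628 and 18566, with Kap, a proximal tubule gene, alone at 172061 in mouse 2. Of 8 endothelial markers only Emcn reached 10 in all mice (summed range 133 to 1388), and Tek was at 0 in every mouse. Of 6 fibroblast and mesangial markers only Col3a1 did (summed range 130 to 962). Of 8 monocyte and dendritic cell markers, Ccr2 (16766 ± 10845) and Clec9a (2071 ± 1171) reached 10 in all mice. Xcr1 was at 534, 2.77 and 407 and Ly6c2 at 1069, 2.77 and 0.705 in mice 1, 2 and 3. Cd209a and Ccr7 were at 0 in every mouse, and Flt3 and Zbtb46 were under 10 in 2 or more mice. The platelet gene Itga2b, the T cell gene Cd3e and the neutrophil gene S100a9 were at 0 in every mouse, while Pf4 (6149 ± 775) and the B cell gene Cd79b (3509 ± 3089) were not. Mouse 2 thus had the lowest summed macrophage markers and the highest summed tubule markers, and the part of this in the values of mouse 2 below was not tested. In bulk RNA, fewer cells of a type and less RNA per cell cannot be told apart.

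Tgfbr1, the type I receptor of TGF-beta, was at 130701, 69792 and 120943 in mice 1, 2 and 3, from 162066, 125755 and 171597 reads. Mouse 2 was the low one and the 2 others lay close together. The mean of 107145 ± 32715 was the 29th highest of all 14811 listed genes, and 125822 without mouse 2. As a share of the summed macrophage markers, which were not divided by exon length, Tgfbr1 was 13.1%, 9.90% and 13.6%. Mouse 2 was lowest on this scale too, but the range between mice was 1.37-fold in place of 1.87-fold. The part of macrophage content in the Tgfbr1 value of mouse 2 was not tested. Longer transcripts collect more reads, so levels of different genes are compared per kb of exon. On that scale Tgfbr1 was at 16398 ± 5007, rank 89 of 14759 genes with an exon length, and ranks 82, 125 and 84 in the 3 libraries. The genes ranked next to it per kb were H2-DMa (16469 ± 1526), which loads peptides onto MHC class II, and Atox1 (16396 ± 862), a copper chaperone. Of all reads of the 10 members, Tgfbr1 held 80.9%, 80.1% and 80.0%.

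The genes whose levels over the 3 mice lay nearest to those of Tgfbr1 were found among 6571 other genes at 10 or more in every mouse, by the root mean square difference of log2(level + 1). The nearest was Ptprc, which encodes the leukocyte antigen CD45, at 101038, 63998 and 123816 (difference 0.23 on the log2 scale). Itm2b (0.33), Slamf9 (0.37), Ly86 (0.37) and the Fc gamma receptor gene Fcgr3 (0.42) followed. In all 5, as in Tgfbr1, the level in mouse 2 was below that in mouse 1. With 3 mice, nearness reflects mainly a like level and says nothing of joint control.

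Tgfbr2, the type II receptor that binds the ligand, was at 9212, 5475 and 11157 (mean 8615 ± 2888). Mouse 2 was again lowest, and the values of all 3 mice stayed far below those of Tgfbr1. Per kb of exon Tgfbr2 was at 1052 ± 353, above 89.4% of genes. Within a library, Tgfbr1 exceeded Tgfbr2 per kb by 17.8-fold, 15.97-fold and 13.6-fold in mice 1, 2 and 3 (log2 ratio 3.97 ± 0.11 SE). The receptor ratio thus stayed within a narrow band in the 3 mice. An exact sign-flip test of 3 mice cannot give a two-sided p below 0.25, so no ratio here carries a test.

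Acvr1, the BMP type I receptor among the members, was at 1068, 0.555 and 31.0 in mice 1, 2 and 3. In mouse 2 this was 1 read and in mouse 3 it was 44 reads, against 1324 reads in mouse 1. The mean of 366 ± 608 therefore rests on mouse 1, without which it was 15.8. Of the 6 fibroblast and mesangial markers, Dcn (906, 0.555 and 154), Col1a1 (33.9, 2.77 and 21.1) and Col1a2 (10.5, 0.555 and 7.05) had the same order over mice. The others, Col3a1 (11.3, 54.4 and 17.6), Pdgfra (0, 59.9 and 0) and Acta2 (0, 12.2 and 0.705), were highest in mouse 2. The part of these cells in the Acvr1 values was not tested. The level in mouse 2 lay under the floor of 3 reads, which is 1.66 normalised reads in that library. Amplified reads are not molecules, so this floor covers counting error only.

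**Figure D1:**
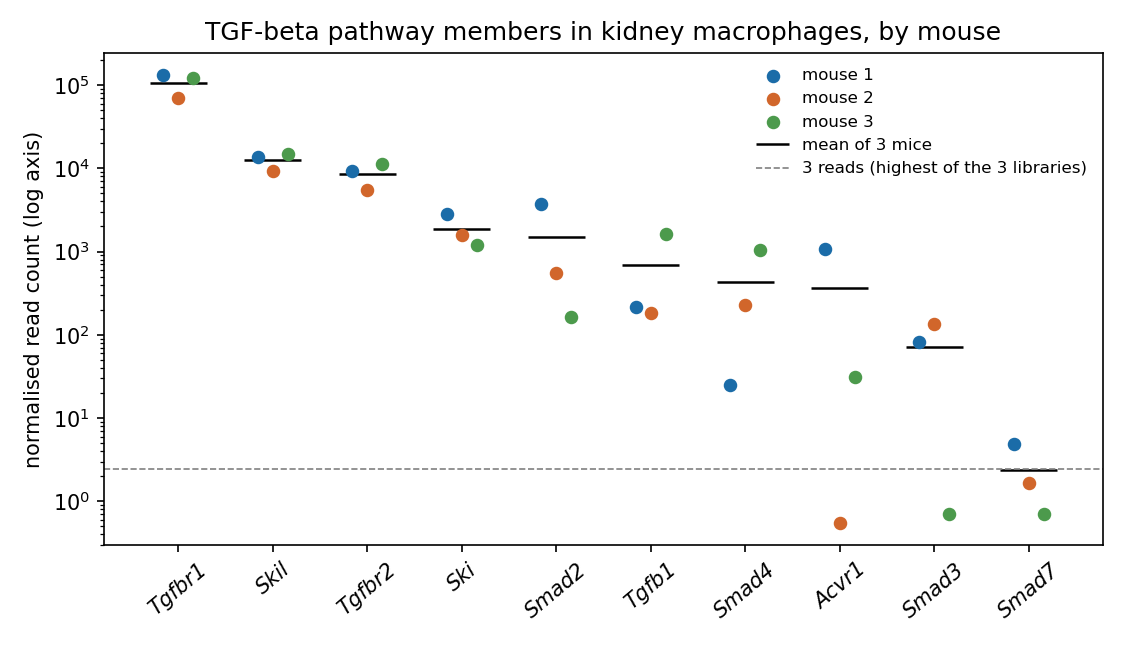
Normalised read count on a log axis for each of the 10 members (horizontal axis, ordered by mean) in mice 1, 2 and 3 (coloured points), with the mean as a bar and 3 reads as a dashed line. The Tgfbr1 points lie between 69792 and 130701, above every point of the other members, while those of Smad2, Smad4, Smad3 and Acvr1 spread widely.

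The receptor-activated Smads lay below Tgfbr1 and Tgfbr2 per kb in all 3 mice and differed widely between mice. Smad2 was at 3773, 550 and 166 in mice 1, 2 and 3, highest in mouse 1 and lowest in mouse 3. Smad3 was at 82.3, 133 and 0.705, where the last value is 1 read. The common partner Smad4 was at 25.0, 231 and 1051, in the opposite order to Smad2. Per kb the log2 ratio of Smad2 to Smad4 was 5.94, 0.01 and -3.90 in mice 1, 2 and 3, so the ratio changed sign between mice and no order of these genes could be given. Smad1 and Smad5, which act in BMP signals, were in the same range: Smad1 was at 234, 168 and 431 and Smad5 at 104, 507 and 586. Of 8 Smads looked for, 6 were found, without Smad6 and Smad9.

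Per kb of exon, Smad2 was at 170 ± 226, Smad4 at 117 ± 146, Smad5 at 53.8 and Smad1 at 44.3. The Smad2 level had a mean of 1496, and 358 without mouse 1, and the Smad4 level a mean of 436, and 128 without mouse 3. Smad3 was at 14.8, 24.03 and 0.127 per kb in mice 1, 2 and 3. The median over all genes with an exon length was 69.3 on this scale. Tgfbr1 exceeded Smad2 per kb by 46.5-fold, 170-fold and 975-fold, and Smad4 by 2856-fold, 171-fold and 65.3-fold. Both ratios were above 1 in 3 of 3 mice and differed widely between mice, where Tgfbr1 itself ranged 1.87-fold.

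The inhibitory Smad7 was at 4.84, 1.66 and 0.705, which is 6, 3 and 1 reads. In mice 2 and 3 this is at or under the floor of 3 reads. Smad7 is itself a common target gene of the pathway. With so few reads no fold against it is given.

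Both repressors were present in every mouse. Skil, which encodes SnoN and is also induced by TGF-beta in many cells, was at 13731, 9192 and 14926 (mean 12617 ± 3025). It was the member with the narrowest range between mice, 1.62-fold, and was above 91.2% of genes per kb (1301 ± 312). Ski was at 2843, 1591 and 1205 (mean 1880 ± 856), or 338 ± 154 per kb. Skil exceeded Ski per kb by 2.77-fold, 3.31-fold and 7.10-fold (log2 ratio 2.01 ± 0.42 SE), and the Skil and Ski values did not overlap. Tgfbr2 lay a little below Skil per kb in 3 of 3 mice (log2 ratio -0.34 ± 0.09 SE), while the ranges of the 2 genes overlapped between mice.

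Tgfb1, the ligand, was at 217, 183 and 1641 in mice 1, 2 and 3. Mice 1 and 2 lay close together and mouse 3 stood apart, so that the mean of 680.1 carried an SD of 832 and was 199.8 without mouse 3. Per kb Tgfb1 was at 135 ± 165. The receptor Tgfbr1 exceeded it per kb by 463-fold, 293-fold and 56.8-fold. Platelets are rich in this ligand, and among their genes Ppbp was at 2.42, 1.11 and 1698 in mice 1, 2 and 3, while Itga2b was at 0 in every mouse. Of the 3 platelet markers listed, Pf4 alone was at 10 or more in each library. It was at 6360, 6796 and 5290 in mice 1, 2 and 3, and thus lowest in mouse 3. The summed markers were 6362, 6797 and 6987. The summed endothelial markers, at 573, 133 and 1388, had the same order over mice as Tgfb1, mainly through Kdr (453, 7.77 and 1345). Emcn, Tie1, Cdh5, Plvap and Pecam1 were not highest in mouse 3. The part of platelets, endothelial cells or other cells in the Tgfb1 value of mouse 3 was not tested.

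**Figure D2:**
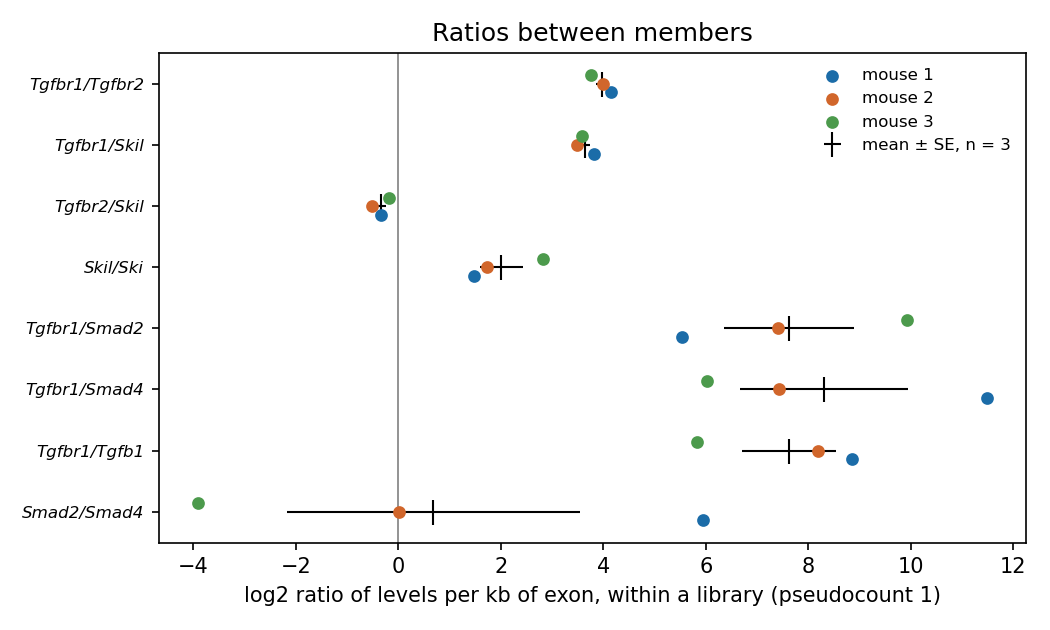
Log2 ratio of levels per kb of exon between pairs of members within each library (horizontal axis), by pair (vertical axis), with mice as coloured points and the mean ± SE in black. The Tgfbr1/Tgfbr2 points lie between 3.76 and 4.15, whereas the Smad2/Smad4 points run from -3.90 to 5.94.

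In order of level per kb the members ran Tgfbr1, Skil, Tgfbr2, Ski, Smad2, Tgfb1, Smad4, Acvr1, Smad3 and Smad7. The Tgfbr1 range did not overlap that of Skil, and the Tgfbr2 range did not overlap that of Ski. Neighbours from Ski down to Smad7 each overlapped in their ranges over mice. Within each library Ski still exceeded Smad2 per kb, at 511, 286 and 217 against 430, 62.6 and 18.9 in mice 1, 2 and 3. From Smad2 down, the order of neighbours changed between mice and is not fixed by these data. Above 0 in every mouse were 10 of 10 members, against 71% of all listed genes. At 10 or more in every mouse were 7, against 44.4% of all listed genes, and at 1000 or more in every mouse were 4 (Tgfbr1, Tgfbr2, Skil and Ski), against 14.7%. The median member lay at 9.06 and the median of all genes at 5.98 on the scale of the mean log2(level + 1). As these genes were picked with levels known, the counts are given for scale only.

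**Figure D3:**
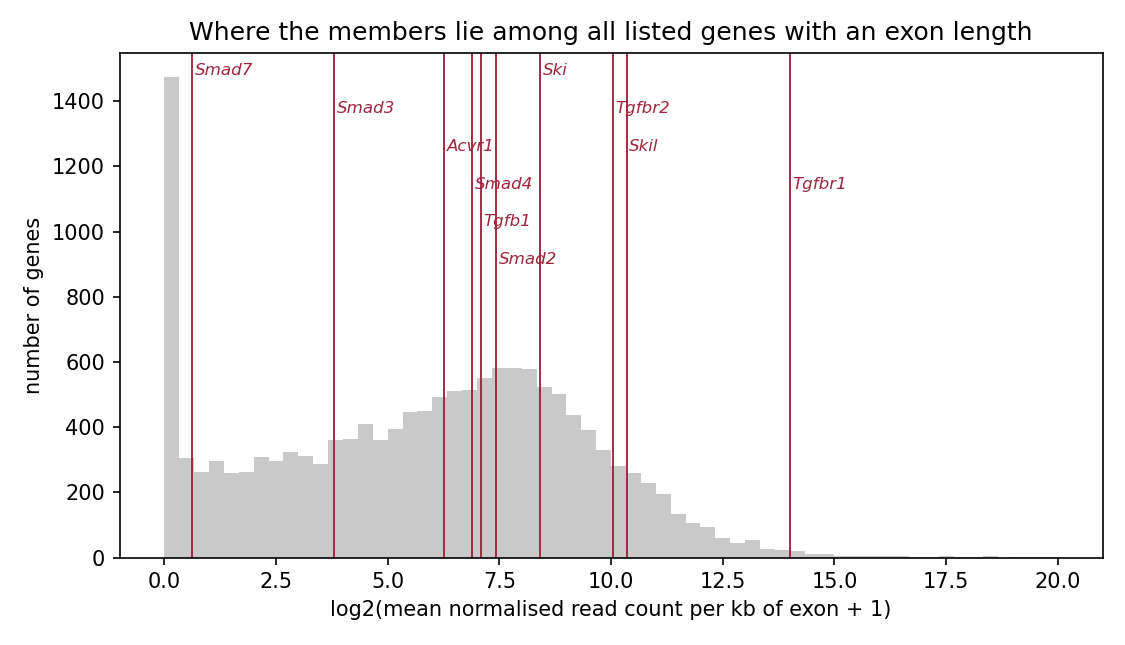
Number of genes (vertical axis) by log2 of the mean level per kb of exon plus 1 (horizontal axis), for the 14759 genes with an exon length, with red lines at the members. Tgfbr1 is in the upper tail, Skil and Tgfbr2 are above most genes, and Smad7 is near the left end.

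The members divided into those with like values in all mice and those without. Tgfbr1, Tgfbr2, Skil and Ski stayed within 3-fold between the highest and the lowest mouse, measured as level + 1. Smad2, Smad3, Smad4 and Acvr1 went beyond 10-fold, and Tgfb1 (8.94-fold) and Smad7 (3.42-fold, on very few reads) lay between. Wide ranges were common in these libraries: of 4499 genes with a mean of 1000 or more, 37.8% stayed within 3-fold and 33.3% went beyond 10-fold. Of 7137 genes with a mean between 10 and 1000, 10.1% stayed within 3-fold and 78.5% went beyond 10-fold. Of 434 genes with a mean of 10000 or more, 79.5% stayed within 3-fold. Against genes with a mean within 2-fold of its own, Tgfbr1 had a wider range than the median (1.87-fold against 1.47-fold), and 71.1% of these 38 genes had a narrower one. On the same measure the range of Skil was narrower than the median (1.62-fold against 2.40-fold, 693 genes), as was that of Ski (2.36-fold against 8.21-fold, 3129 genes). Tgfbr2 (2.04-fold against 2.62-fold), Tgfb1 (8.94-fold against 58.1-fold) and Smad4 (40.5-fold against 112-fold) were also narrower than their like-level medians, and Smad2 was wider (22.7-fold against 11.0-fold). For Acvr1, 96.7% of 2727 genes of like level had a narrower range. The mouse with the highest value was mouse 1 for 5 members, mouse 3 for 4 and mouse 2 for 1. The lowest value was in mouse 2 for 5 members, in mouse 3 for 4 and in mouse 1 for 1. Among the members beyond 10-fold, Smad2 and Acvr1 were highest in mouse 1, Smad3 in mouse 2 and Smad4 in mouse 3. The part of any library in these ranges was not tested.

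**Figure D4:**
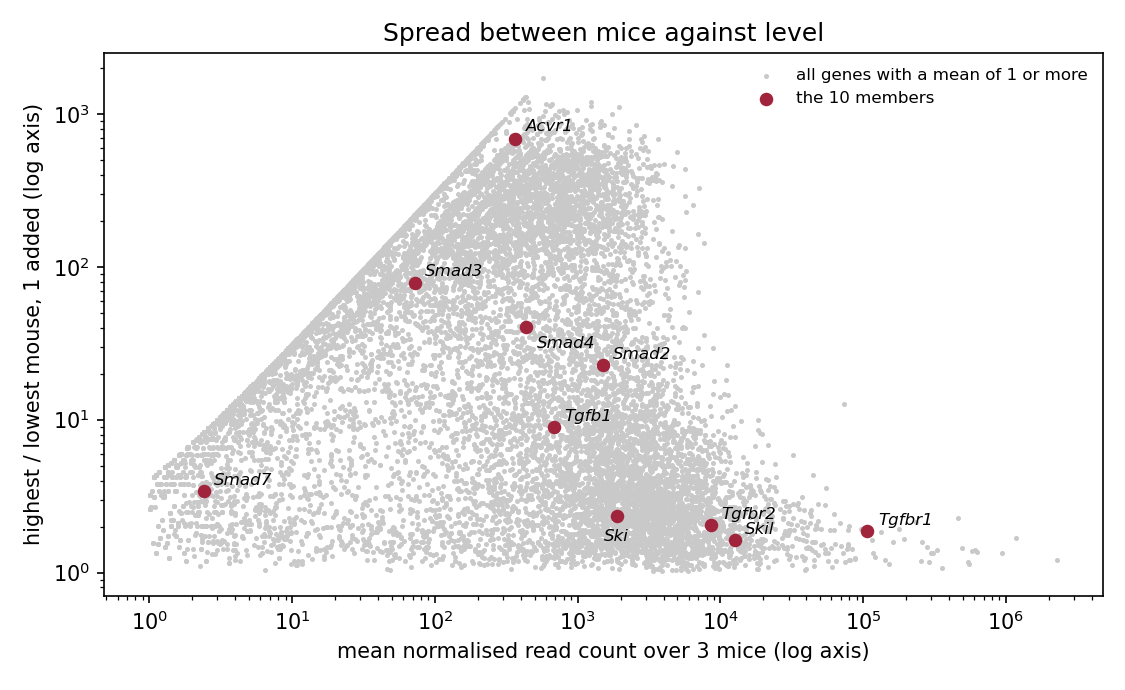
Highest over lowest mouse, with 1 added to each level (vertical log axis), against the mean level over 3 mice (horizontal log axis), for all genes with a mean of 1 or more (grey) and the members (red, labelled). Tgfbr1, Tgfbr2, Skil and Ski lie low, at 1.62-fold to 2.36-fold, and Acvr1 near the upper edge.

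Other genes of the pathway came from lists written by role from textbook knowledge, which held 109 genes besides the members. Of these, 60 (55.0%) reached 10 in all mice and 28 (25.7%) reached 1000, beside 44.4% and 14.7% of all listed genes. Among ligands of the family, none of the 7 others reached 10 in all mice. The highest per kb was Bmp2, at 1538, 307 and 6.34 in mice 1, 2 and 3, next to Tgfb1. Bmp4 (46.0, 137 and 0) and Gdf3 (0.806, 211 and 0) followed.

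Among genes that hold TGF-beta latent or free it, the integrin chains Itgb1 (7146 ± 5662) and Itgav (14599 ± 7744), Nrros (2693 ± 1409), which tethers latent TGF-beta on myeloid cells, and Itgb5 (1653 ± 1725) were highest per kb. Ltbp1, Ltbp4 and Lrrc32, which tether latent TGF-beta in the matrix or on regulatory T cells and platelets, were at 0 in every mouse. Of 13 genes in this list, 5 reached 10 and 3 reached 1000 in all mice, a share near that of all listed genes (44.4% and 14.7%) at the lower threshold. The partner of the alpha v chain encoded by Itgb8 was at 1763, 3603 and 9.87, low in mouse 3 only.

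Among the other receptors of the family, Bmpr1a (7159, 67.2 and 141 in mice 1, 2 and 3), Acvr2a (1640, 2905 and 705.5) and Bmpr2 (3102, 1459 and 1002) had the highest levels per kb after the TGF-beta receptors. The activin type I receptor Acvr1b was at 2.42, 0 and 59.2 and Acvrl1 at 4.84, 307 and 249. Of the 6 other receptors, 3 reached 10 in all mice and 1 of them, Bmpr2, reached 1000. These shares are near the 44.4% and 14.7% of all listed genes. Tgfbr1 exceeded each of the 6 other receptors in level per kb in all 3 mice. The co-receptors Tgfbr3 (45.9 ± 69.5) and Eng (14.5 ± 24.4) were low, and neither reached 10 in all mice.

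Of 25 regulators of receptors and Smads, 19 reached 10 and 6 reached 1000 in all mice, where 44.4% and 14.7% of all listed genes did. The ubiquitin ligase genes Stub1 (2636 ± 1485) and Cul1 (3921 ± 2549), the deubiquitinase gene Uchl5 (2737 ± 760.0) and Rbx1 (3361 ± 894) were highest per kb. Rnf111, whose product Arkadia marks Smad7 and SnoN for degradation, was at 1219, 2658 and 9688. Smurf2, a ligase that Smad7 brings to the receptor, was at 271, 435 and 660, while Smurf1 was at 0.806, 204 and 1.41. Among nuclear partners, Tgif1, a repressor that binds Smads, was at 4175 ± 1430, Rbl1 at 2951 ± 3606 and the acetyltransferase gene Ep300 at 5398 ± 4176, and 8 of 10 besides Ski and Skil reached 10 in all mice.

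Target genes often used as a readout of the pathway gave no uniform picture. Besides Tgfbr1 and Skil, which are members, 14 such genes were listed next to Smad7. Of these 14, 5 reached 10 and 3 reached 1000 in all mice, which is near the 44.4% and 14.7% of all listed genes. The 3 were Id2 (8818 ± 3725), Tgfbi (3195 ± 1670) and Tgif1 (4175 ± 1430). Pmepa1 was at 14.5, 748 and 769 and Id1 at 0, 0.555 and 0. A group treated with TGF-beta or its inhibitor was not part of this series, so these levels say nothing of whether the pathway was active.

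Microglia depend on TGF-beta for a set of genes, of which 19 were listed here. In the kidney macrophages 13 of them reached 10 and 9 reached 1000 in all mice, beside 44.4% and 14.7% of all listed genes. Among those highest per kb were the complement gene C1qa (52143 ± 11609), Gpr34 (10494 ± 3608) and the growth factor receptor gene Csf1r (13947 ± 5720). The purinergic receptor gene P2ry12 was at 9357, 2328 and 4294. The transcription factor gene Sall1 (0.806, 30.5 and 0) and Tmem119 (247, 18.3 and 128) were low, and Fcrls was at 0 in every mouse. Several of these, among them C1qa, Csf1r, Mertk and Cx3cr1, are also general macrophage markers and stand in that list too.

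**Figure D5:**
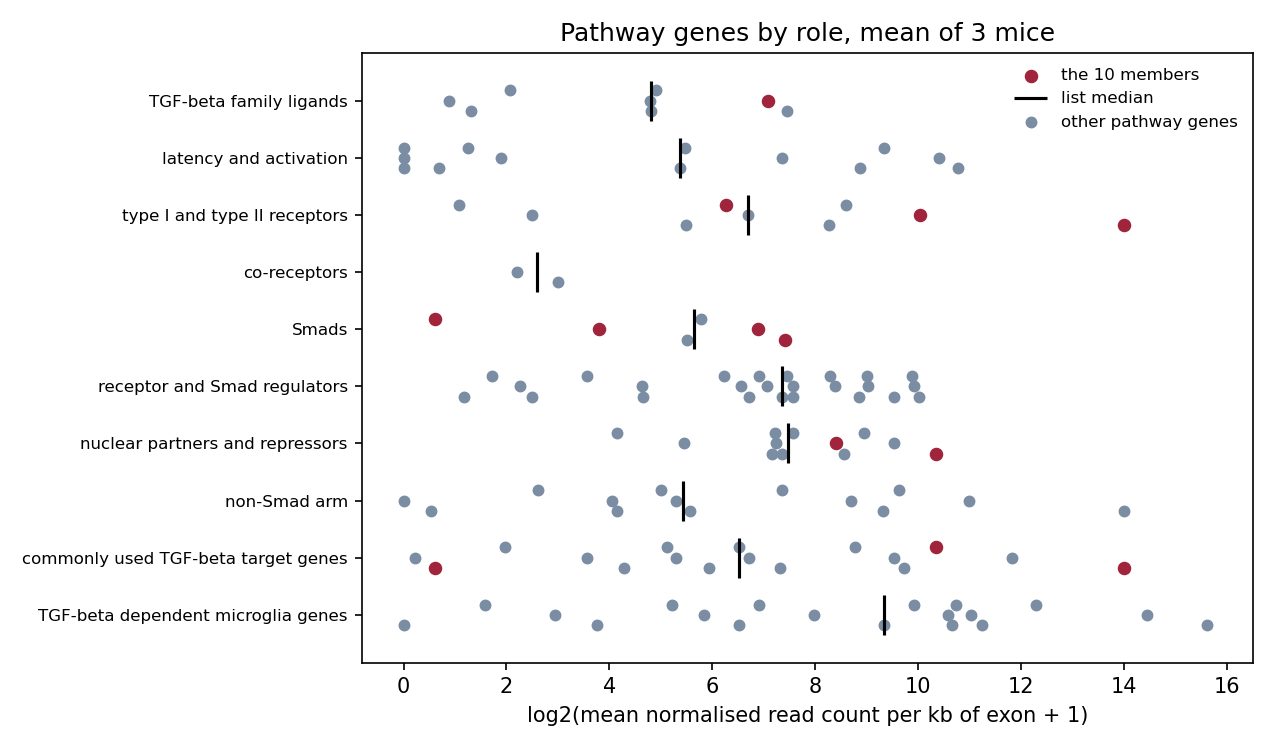
Log2 of the mean level per kb of exon plus 1 (horizontal axis) for the genes of each role (rows), with members in red, other genes in blue-grey and the list median as a bar. Tgfbr1 lies apart from the other receptors, and the co-receptors and most ligands lie low.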

How the data were processed

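The data were 3 RNA-seq libraries of sorted kidney macrophages. Per the labels' protocols, kidneys were digested for 30 min, cDNA was amplified with SMART-seq V4, and 10 ng went into libraries with 8 cycles of PCR. Per the submitters' processing notes, reads were counted with HTSeq 0.5.4 and scaled with DESeq 1.18.0 on mm9. The aligner, annotation, strand setting and row filter were not given in the sources used here. Deposited values are a normalised signal: the authors' lowest value is 1, and after subtraction of 1, 100% of values were whole multiples of 1 step per library (tolerance 0.05 of a step), which gave the reads per gene.

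Exon lengths (union of exons) came from GENCODE M21 by gene identifier, for 99.6% of genes. This annotation is of another build and served for lengths only. In it, exons of 0 of the 10 members overlap those of another gene. Log2 values use a pseudocount of 1, and ratios are within a library. Longest transcripts, other pseudocounts, scaling by TMM (trimmed mean of M values) or by library total, and leaving out each mouse were alternatives. With a single group no test between conditions was possible. The mice are labelled as separate animals. The members and lists were chosen with earlier results of these data known, and the pairs of members after their values were seen. Genes named from the lists were the 4 highest per kb and those at 0 in every mouse, of which some are not reported here. Further ones (such as Itgb8, Rnf111, Smurf1, Smurf2, Pmepa1, Id1, P2ry12, Sall1, Tmem119 and the remaining receptors and Smads) were chosen after their values were seen. The read recovery and scaling were tested on simulated data. Python 3.11.15, numpy 2.4.6, pandas 2.3.3 and matplotlib 3.10.9 were used.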

Additional observations from a re-analysis of the deposited data

How the results depend on the processing

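No paired analysis was possible because there was a single group. The mean level of each of the 10 members moved by less than its SD under TMM scaling, library total scaling and the added 1 kept. This could hardly come out otherwise, as both scalings were put back on the deposited mean depth. The added 1 moves each mean by only 1. For Tgfb1, Smad2, Smad4 and Acvr1 the SD also exceeded the mean. The comparison therefore does not show how far these levels depend on the scaling. With each mouse left out, the Tgfbr1 mean ran from 95367 to 125822, but Acvr1 went from 366 to 15.8 and Smad2 from 1496 to 358 without mouse 1, Smad7 from 2.40 to 1.185 without mouse 1, Smad3 from 72.1 to 41.5 without mouse 2, and Tgfb1 from 680.1 to 199.8 and Smad4 from 436 to 128 without mouse 3. Ranked only among genes at 10 or more in every mouse, Tgfbr1 lay above 98.6% of genes per kb in place of 99.4%, Skil above 80.2% in place of 91.2%, Tgfbr2 76.4% in place of 89.4%, Ski 48.1% in place of 75.2%, Smad2 29.6% in place of 63.7%, Tgfb1 24.1% in place of 59.9% and Smad4 21.4% in place of 57.8%. Without division by exon length the Tgfbr1/Tgfbr2 log2 ratio was 3.65 in place of 3.97. No ratio that had the same sign in 3 of 3 mice changed sign. Per kb of the longest transcript the Tgfbr2/Skil log2 ratio was -0.85 in place of -0.34 and the Tgfbr1/Skil ratio 3.29 in place of 3.63, and without length division the Skil/Ski ratio was 2.81. Without mouse 3, Tgfb1 lay above 45.7% of genes per kb in place of 59.9%, and without mouse 1 Smad2 lay above 45.9% in place of 63.7%. By the mean over mice in place of every mouse, 9 members were at 10 or more and 5 at 1000 or more. By the same change, genes at 10 or more rose from 1 to 5 for ligands, from 5 to 8 for latency and activation, from 5 to 8 for receptors, from 0 to 2 for co-receptors, from 7 to 15 for target genes, from 7 to 12 for the arm without Smads, from 1 to 3 for endothelial and from 1 to 4 for fibroblast and mesangial markers (members of the pathway included). Genes at 1000 or more rose from 3 to 5 for latency and activation, from 3 to 5 for receptors, from 0 to 1 for Smads, from 6 to 13 for regulators and from 5 to 8 for nuclear partners. Without mouse 3 the counts were 3 ligands at 10 or more and 11 regulators at 1000 or more, and without mouse 2 there were 8 nuclear partners at 1000 or more and 2 endothelial and 3 fibroblast and mesangial markers at 10 or more. The ranges between mice of Smad3, Smad7 and Acvr1 depended on the pseudocount, since each had a library at 1 read: with a pseudocount of 10 they were 13.4-fold, 1.39-fold and 102-fold. Reads from amplified cDNA are not molecules, and 3 mice limit every SD given.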

Other observations

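TGF-beta receptors also signal without Smads, through the kinase encoded by Map3k7 (TAK1), the p38 kinase and small GTPases. Of 14 genes of this arm, 7 reached 10 and 4 reached 1000 in all mice, beside 44.4% and 14.7% of all listed genes. The share was near that of all listed genes at the lower threshold only. The GTPase gene Cdc42 was at 56051, 46498 and 43033 in mice 1, 2 and 3, and per kb of exon at 16361, close to the level of Tgfbr1. The p38 gene Mapk14 (8918 ± 4518), Tab2 (4871 ± 5998), which encodes a partner of TAK1, and Rhoa (4750.0 ± 1880) followed per kb, while Pard6a was at 0 in every mouse. Map3k7 itself was at 2.42, 588 and 8.46, so that a level well above the floor was seen in mouse 2 only. The kinase genes Rock1 (8784, 6829 and 6765) and Rock2 (610.5, 5338 and 821), which act below Rhoa, differed in how even they were between mice: Rock1 ranged less than Rock2. Rock1, Rock2 and Map3k7 were named after their values were seen.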
